A study of Mus musculus with 9 samples.

Results

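The genes described are 10 transcription factor genes grouped here under the identity of pancreatic beta cells: Mafa, Pdx1, Neurod1, Nkx6-1, Nkx2-2, Isl1, Pax6, Rfx6, Bach2 and Mnx1. The grouping does not mean that each of them maintains that identity. They were taken by symbol from a table of read counts for 52459 gene symbols. All 10 were in the table and all 10 passed the filter on low counts, among 16826 genes tested. RNA was sequenced from islets of Langerhans, the hormone-secreting cell clusters of the pancreas, of mice 12 weeks old. The groups were db/db mice, which carry the diabetes allele of the leptin receptor gene Lepr on both chromosomes, db/+ heterozygotes, and wild type (WT) mice, with 3 libraries each. All 9 libraries carry the same strain label, that of the strain in which the db allele is kept. The labels do not state how many mice went into a library, so the spread that the p values measure may be technical. The db/db mouse lacks the signalling form of the leptin receptor in every tissue from birth and becomes obese and diabetic, so a difference in its islets cannot be assigned to the islet itself.

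These factors bind enhancers and promoters of beta cell genes, often next to one another, and regulate each other's genes. PDX1, NEUROD1 and MAFA bind neighbouring elements of the insulin promoter. NKX6-1, NKX2-2 and MNX1 keep genes of other islet cell types silent in beta cells, and ISL1, PAX6 and RFX6 are shared by several kinds of islet endocrine cell. In islet biology the set is known for its part in the loss of beta cell identity, the state in which insulin-producing cells no longer express their mature genes.

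Promoter sequences are shown for 2 of the factor genes that were lower in db/db islets, Pdx1 and Neurod1, and for the 2 that were higher, Rfx6 and Bach2, because these 2 directions are the main contrast among the 10 genes. Each window runs from 250 bases before to 50 bases after a transcription start, is written on the gene's own strand, and was taken from RefSeq for GRCm38.p6, the assembly of mm10. RefSeq windows were found for 9 of the 10 genes, with 10 windows in all. The windows are chr5:147269847-147270146 (+) for Pdx1, chr2:79456587-79456886 (-) for Neurod1, chr10:51685268-51685567 (+) for Rfx6 and chr4:32417185-32417484 (+) for Bach2. The Pdx1 and Neurod1 windows lie at the start of the gene span. Those of Rfx6 and Bach2 lie at starts inside the gene spans, which are 51677760 to 51730429 and 32238413 to 32586109. Their matches need not be those of the main promoter. Capitals mark the E-box CANNTG, the kind of site bound by basic helix-loop-helix factors such as NEUROD1, which reads the same on both strands.
Pdx1: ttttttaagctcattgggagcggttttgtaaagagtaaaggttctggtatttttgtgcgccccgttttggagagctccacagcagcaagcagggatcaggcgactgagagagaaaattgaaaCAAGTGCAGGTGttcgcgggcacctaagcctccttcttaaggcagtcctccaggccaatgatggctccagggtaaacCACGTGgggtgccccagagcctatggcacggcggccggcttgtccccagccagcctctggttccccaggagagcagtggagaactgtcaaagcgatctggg
Neurod1: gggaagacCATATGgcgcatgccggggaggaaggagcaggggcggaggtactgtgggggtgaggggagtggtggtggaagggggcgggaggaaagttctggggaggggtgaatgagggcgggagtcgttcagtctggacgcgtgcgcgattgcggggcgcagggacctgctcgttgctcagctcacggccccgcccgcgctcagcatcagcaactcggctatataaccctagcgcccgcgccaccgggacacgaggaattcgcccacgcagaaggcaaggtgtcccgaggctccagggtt
Rfx6: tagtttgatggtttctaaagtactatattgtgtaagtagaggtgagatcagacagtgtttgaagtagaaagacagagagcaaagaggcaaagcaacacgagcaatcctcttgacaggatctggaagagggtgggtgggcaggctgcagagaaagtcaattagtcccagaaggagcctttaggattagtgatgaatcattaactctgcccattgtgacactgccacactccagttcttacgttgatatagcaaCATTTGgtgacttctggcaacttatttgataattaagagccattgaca
Bach2: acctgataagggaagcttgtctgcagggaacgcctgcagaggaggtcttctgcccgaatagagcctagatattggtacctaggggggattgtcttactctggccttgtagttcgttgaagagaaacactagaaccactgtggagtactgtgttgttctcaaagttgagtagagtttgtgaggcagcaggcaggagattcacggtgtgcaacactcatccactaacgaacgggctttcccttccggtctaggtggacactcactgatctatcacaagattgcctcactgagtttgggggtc
The Pdx1 window held 3 E-boxes, the Neurod1 and Rfx6 windows 1 each, and the Bach2 window 0. An E-box was present in 7 of the 10 windows of the factor genes and in 72.3% of 32851 RefSeq promoter windows. The windows without an E-box were those of Bach2 and Nkx6-1 and a window of Pax6. They thus came from genes of both directions. The homeodomain core TAAT, read on both strands, was present in 6 of the 10 windows and in 58.0% of all windows, and occurred 5 times in the Rfx6 window. The MAF recognition sequence TGCTGA (the core of MAF protein sites), also read on both strands, was present in 2 windows (Neurod1 with 2 matches and Nkx6-1 with 1) against 19.5% of all windows. The heptamer TGANTCA, bound by AP-1 and BACH factors, occurred 1 time in the Rfx6 window and in no other window of the set, against 7.81% of all windows. Overlaps between motifs were not removed. These matches describe letters in the windows and are not evidence of binding.

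A level is in CPM, the count divided by the library size after TMM scaling. Differences between groups are log2 fold changes with their SE, and a gene was called where its Benjamini-Hochberg adjusted p in the quasi-likelihood test of edgeR was under 0.05. Total counts ranged from 8860024 to 11734886 per library. A total of 3 counts, the limit that a count of 0 allows, was 0.238 to 0.412 CPM, and the smallest count of any factor gene in any library was 20. Such limits cover counting error only. The libraries also differed in sex-linked and ribosomal RNA, and these differences partly followed the groups. Xist RNA of the inactive X chromosome and Y-linked genes were both present in db/db 1, WT 1 and WT 3. In db/db 2 and db/db 3 the Y-linked sum was at most 1.11 CPM and Xist was at 948 and 858 CPM. Every db/+ library had a Y-linked sum of at least 373 CPM and at most 0.506 CPM of Xist. The Y-linked sum was 176 CPM in db/db 1 and 219, 343 and 235 CPM in WT 1 to 3. It thus did not overlap between any 2 groups. In none of the 3 comparisons, db/db against WT included, can genotype be told apart from the Y-linked level. In db/db against db/+, genotype cannot be told apart from Xist either. Gm42418 and Lars2, loci that overlap ribosomal RNA sequence, took 17.9%, 13.3% and 0.0558% of counts in db/db 1 to 3, at most 0.0237% in db/+ and 1.89% to 2.58% in WT. In db/+ against WT, genotype cannot be told apart from this share.

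The beta cell label was checked against hormone genes. Ins2 averaged 51590 ± 5264 CPM in db/db, 50405 ± 1631 CPM in db/+ islets and 50306 ± 10887 CPM in WT (SD, n = 3 each), so Ins2 RNA was abundant in every group. Other beta cell markers did not stay level. Of 8 markers, Ins2, Nkx6-1 and Mafa among them, 5 fell, 1 rose and 2 did not pass in db/db against WT. Their median was -1.32, and 19.9% of all tested genes were lower and 21.8% higher. Nkx6-1 and Mafa are factor genes themselves, and all the other markers are also in the list of target genes below. The fall of these markers is therefore no independent check of the label. The islets also held other cells. The summed level of 24 acinar markers was 21116 to 59441 CPM in db/db, 16653 to 37833 CPM in db/+ islets and 7291 to 13662 CPM in WT, with db/db 1 the highest. In db/db against WT, 13 of 24 acinar and 10 of 12 duct markers rose and 0 fell. Likewise 6 of 10 stellate and pericyte, 6 of 9 endothelial and 3 of 10 macrophage markers rose and 0 fell. Among 11 alpha cell markers 7 fell and 3 rose, with a summed level of 10452 to 12046 CPM in db/db, 17465 to 21034 CPM in db/+ islets and 11123 to 19608 CPM in WT. No marker of these lists was at 0 in every library. Apart from a fit with acinar content as a covariate, given below, their part in the results on the factor genes was not tested. In these bulk samples fewer beta cells and less RNA of a gene per beta cell cannot be told apart.

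Of the 10 factor genes, 8 were lower and 2 were higher in db/db than in WT islets by the test, where 19.9% of all tested genes were lower and 21.8% higher. Their median log2 fold change was -0.82, against 0.01 over all tested genes. In none of the 10 did the db/db and WT libraries overlap, which was the case for 51.5% of all tested genes. Against db/+ islets, 7 were lower and 2 higher, where 19.7% of all tested genes were lower and 20.6% higher. The median was then -0.78, and 9 of the 10 did not overlap, against 52.2% of all tested genes. Both comparisons use the same db/db libraries. With library totals in place of TMM the median of all genes moved to -0.22 in both. The split of all called genes then became 2176 higher and 5317 lower against WT, in place of 3670 and 3348, and 2011 higher and 5265 lower against db/+, in place of 3459 and 3314. Rfx6 and Bach2 stayed higher in db/db on that scale, at 0.52 and 2.03 against WT.

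**Figure D1:**
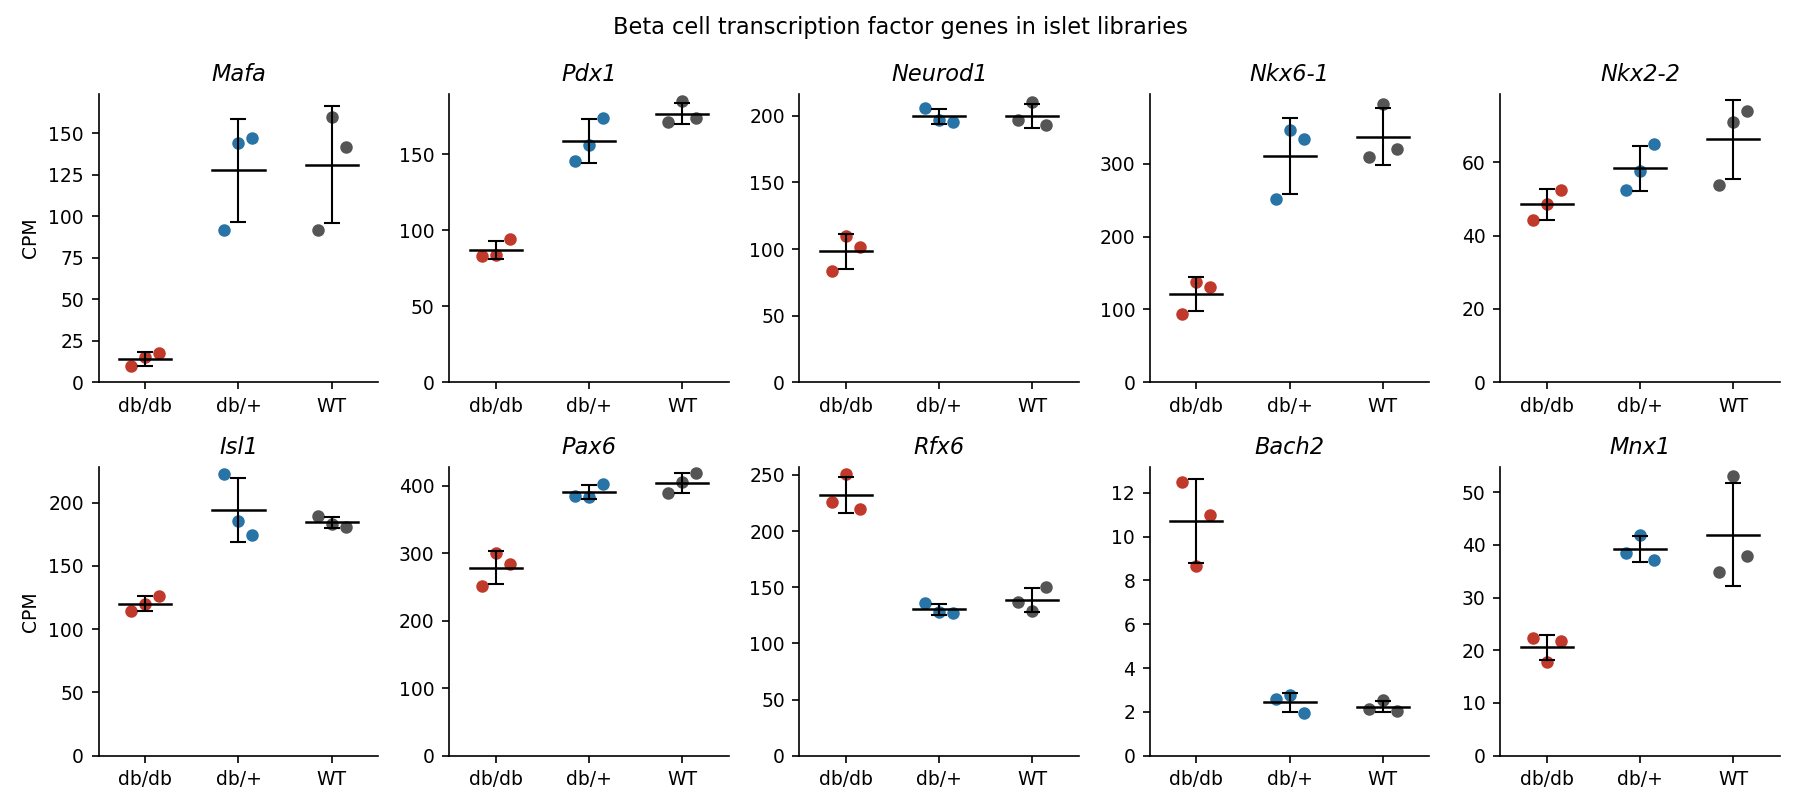
CPM of the 10 factor genes in each library (points) of db/db, db/+ and WT islets, with the mean (wide line) and SD (bars) of 3 libraries per group on axes that start at 0. Mafa stood at 9.47 to 17.6 CPM in db/db against at least 91.8 CPM in the other 6 libraries, and Rfx6 and Bach2 were the 2 genes higher in db/db.

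Mafa, a basic leucine zipper factor of mature beta cells that binds the insulin promoter (chromosome 15, 75745501 to 75748321, mm10), had the largest change of the set. It stood at 9.47, 15.4 and 17.6 CPM in db/db, at 91.9, 144 and 147 CPM in db/+ and at 91.8, 160 and 142 CPM in WT. The highest db/db library was thus far under the lowest of the other 6. Mafa fell to 0.109 times the WT level, a log2 fold change of -3.19 ± 0.34 (adjusted p = 3.41e-04). The log2 fold change was -3.16 ± 0.34 against db/+ (adjusted p = 3.69e-04). Mafa was also the most variable factor gene within each group, with a coefficient of variation of 29.6% in db/db, 24.3% in db/+ and 26.8% in WT. Its fold change lay between -3.77 and -2.85 over all alternatives tried against WT.

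Pdx1, a homeodomain factor of the whole early pancreas that activates insulin and other beta cell genes in adults (chromosome 5, 147270097 to 147275848), was at 83.2, 83.7 and 94.1 CPM in db/db. The db/+ libraries had 145, 156 and 174 CPM and the WT libraries 171, 185 and 174 CPM. The db/db values were close together and did not overlap the others. Pdx1 fell, at -1.02 ± 0.08 against WT (adjusted p = 7.59e-07), which is 0.493 times the WT level, and at -0.87 ± 0.08 against db/+ (adjusted p = 3.36e-06). The long non-coding RNA gene Plut overlaps the first 1425 bases of the Pdx1 span and covers the promoter window shown above. Plut was at 6.59, 9.41 and 7.00 CPM in db/db islets, 38.0, 31.7 and 30.6 CPM in db/+ islets and 25.5, 29.3 and 31.9 CPM in WT. It fell, at -1.91 on the log2 scale against WT (adjusted p = 5.95e-07) and at -2.12 against db/+ (adjusted p = 2.00e-07). Whether counting used strand is unknown, so reads of the shared stretch could count for either gene.

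Neurod1, a basic helix-loop-helix factor that binds E-boxes of the insulin promoter (chromosome 2, 79452637 to 79456636), stood at 83.7, 110 and 101 CPM in db/db, at 206, 197 and 196 CPM in db/+ and at 197, 210 and 193 CPM in WT. The db/+ and WT libraries lay within a narrow band, and all 3 db/db libraries were under it. Neurod1 fell, at -1.03 ± 0.09 against WT (adjusted p = 1.40e-06) and at -1.02 ± 0.09 against db/+ (adjusted p = 1.56e-06). For 2 of its binding partners among the E proteins, Tcf3 fell against WT, at -0.41 ± 0.13 (adjusted p = 0.0207), and Tcf12 had a difference of -0.19 (adjusted p = 0.0564). These 2 genes were chosen after their values were seen.

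Nkx6-1, a homeodomain factor that holds beta cell identity by keeping genes of other islet cells silent (chromosome 5, 101659184 to 101664711), had the next largest fall after Mafa. It was at 93.9, 138 and 130 CPM in db/db islets, 251, 346 and 335 CPM in db/+ islets and 309, 382 and 321 CPM in WT. No db/db library reached the lowest library of the other groups. Nkx6-1 fell, at -1.48 ± 0.17 against WT (adjusted p = 6.60e-05) and at -1.36 ± 0.17 against db/+ (adjusted p = 1.20e-04).

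Mnx1, a homeodomain factor needed for beta cell formation and also known from motor neurons (chromosome 5, 29473823 to 29478470), was at 22.2, 17.8 and 21.7 CPM in db/db. The db/+ libraries had 38.4, 41.9 and 37.1 CPM and the WT libraries 34.8, 53.0 and 37.9 CPM. WT 2 was set apart from the other WT libraries, and the db/db libraries were under all 6 others. Mnx1 fell, at -1.03 ± 0.15 against WT (adjusted p = 1.82e-04) and at -0.93 ± 0.15 against db/+ (adjusted p = 3.99e-04). With the first letter of the title as a covariate, the difference from db/+ was -0.72 and no longer passed (adjusted p = 0.101). The db/db libraries all have titles opening with H and the db/+ libraries with G, and only the WT libraries have both.

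Nkx2-2, a homeodomain factor that blocks alpha cell genes in beta cells (chromosome 2, 147176485 to 147195434), changed least. It was at 44.3, 48.7 and 52.6 CPM in db/db islets, 52.6, 57.6 and 64.9 CPM in db/+ islets and 53.9, 71.1 and 74.0 CPM in WT. The highest db/db library was level with the lowest db/+ library. Nkx2-2 fell, at -0.45 ± 0.12 against WT (adjusted p = 0.0112). The difference from db/+ was -0.26 ± 0.12 and did not pass (adjusted p = 0.105), with a 95% confidence interval of -0.53 to 0.0018. It passed with library totals as the scale (-0.48, adjusted p = 0.00598), with no filter on low counts (-0.29, adjusted p = 0.0177) and without WT 1 (-0.27, adjusted p = 0.0395).

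Isl1 and Pax6 are expressed in several islet endocrine cell types and not in beta cells alone. Isl1, a LIM homeodomain factor (chromosome 13, 116298270 to 116309688), was at 114, 120 and 126 CPM in db/db islets, 223, 185 and 174 CPM in db/+ islets and 189, 184 and 181 CPM in WT. Pax6, a factor with a paired domain and a homeodomain that activates islet hormone genes (chromosome 2, 105668896 to 105698410), was at 251, 300.0 and 284 CPM in db/db islets, 385, 383 and 403 CPM in db/+ islets and 389, 406 and 419 CPM in WT. For both genes the 3 db/db libraries were under all 6 others. Isl1 fell, at -0.62 ± 0.09 against WT (adjusted p = 1.02e-04) and at -0.69 ± 0.09 against db/+ (adjusted p = 4.07e-05). Pax6 fell, at -0.54 ± 0.08 against WT (adjusted p = 1.52e-04) and at -0.49 ± 0.08 against db/+ (adjusted p = 3.49e-04). Elp4 shares 1091 bases with the Pax6 span and was lower in db/db as well, at -0.50 against WT (adjusted p = 0.00377), so reads could count for either.

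The 3 genes that changed least against WT lost their calls when acinar content entered the fit. With the mean log2 CPM of acinar markers as a covariate, 5 in place of 8 factor genes were lower in db/db than in WT. Nkx2-2 (-0.30, adjusted p = 0.386), Isl1 (-0.42, adjusted p = 0.0637) and Pax6 (-0.40, adjusted p = 0.0562) no longer passed. That mean was 8.25 to 9.51 in db/db and 6.62 to 7.40 in WT, so acinar content and genotype cannot be told apart in this comparison. In db/+ it was 7.64 to 8.81, which overlaps db/db. With the same covariate, Isl1 (-0.63, adjusted p = 1.37e-04) and Pax6 (-0.45, adjusted p = 8.76e-04) remained lower in db/db than in db/+. The library db/db 1, with the most acinar counts, had the lowest level of its group for 7 of the 8 genes that were lower against WT. Without it, 8 factor genes were still lower and 2 higher against WT. With db/db 1, WT 1 and WT 3 left out together, 8 were lower and 2 higher, but this leaves 1 WT library, which is assumed to vary like the other groups, so it is no check of the spread in WT.

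**Figure D2:**
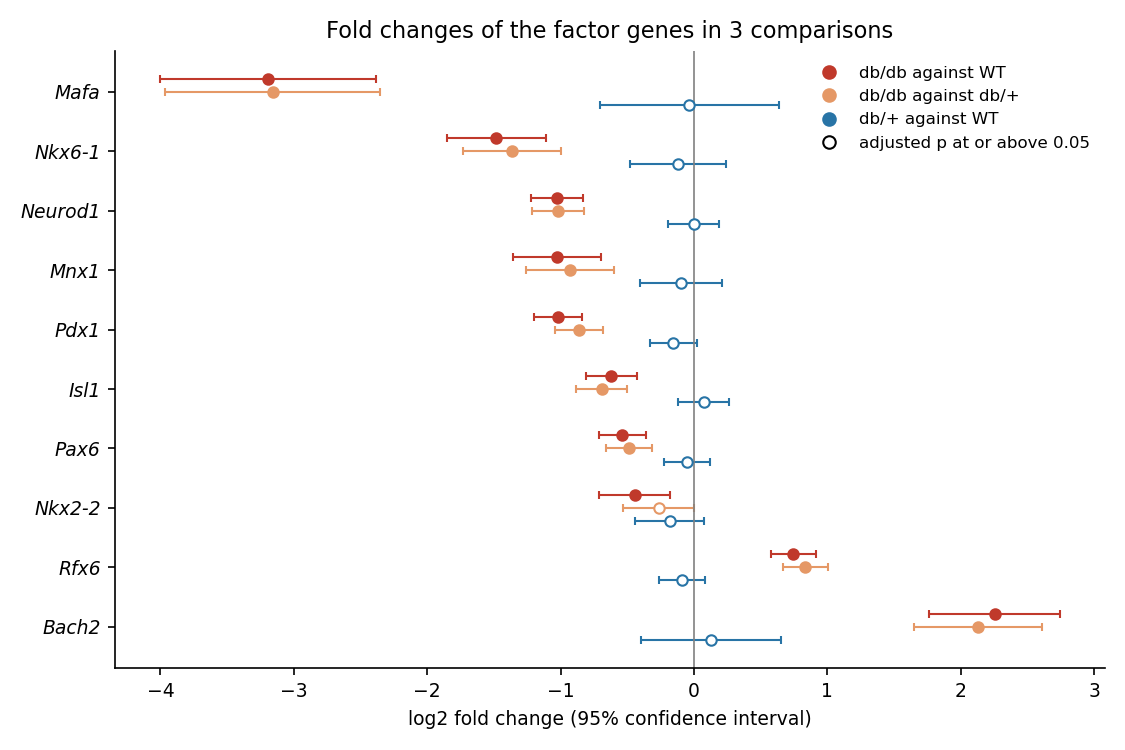
Log2 fold changes of the 10 factor genes with 95% confidence intervals for db/db against WT, db/db against db/+ and db/+ against WT, from the edgeR fit to 9 libraries, where open points did not pass the threshold. The genes run from Mafa (-3.19 against WT) to Bach2 (2.25), and the open points of db/+ against WT lie between -0.18 and 0.13.

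Rfx6, a winged-helix factor of the RFX family needed for islet formation and for insulin secretion in adult beta cells (chromosome 10, 51677760 to 51730429), moved the other way. It was at 226, 251 and 220 CPM in db/db islets, 136, 128 and 127 CPM in db/+ islets and 137, 129 and 150 CPM in WT. All 3 db/db libraries were above the other 6, and the db/+ and WT libraries overlapped. Rfx6 rose by 0.74 ± 0.08 against WT (adjusted p = 6.76e-06), to 1.68 times the WT level, and by 0.83 ± 0.08 against db/+ (adjusted p = 2.73e-06). Against a change of 1.5-fold as the null hypothesis it did not pass for WT (adjusted p = 0.0687). Its family member Rfx3 had a difference of 0.17 against WT that did not pass (adjusted p = 0.253), and was higher in db/db than in db/+ by 0.47 (adjusted p = 0.00683). Rfx3 was chosen after its values were seen.

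Bach2, a repressor with a BTB domain and a basic leucine zipper that is best known from B and T lymphocytes (chromosome 4, 32238413 to 32586109), had the largest rise. It was at 12.5, 8.67 and 11.0 CPM in db/db islets, 2.59, 2.78 and 1.96 CPM in db/+ islets and 2.14, 2.53 and 2.03 CPM in WT. These values rest on 91, 70 and 102 counts in db/db, 32, 33 and 24 in db/+ and 27, 28 and 20 in WT. Every db/db library was above 8 CPM and every other library was below 3 CPM. Bach2 rose by 2.25 ± 0.23 against WT (adjusted p = 4.36e-06) and by 2.13 ± 0.22 against db/+ (adjusted p = 6.29e-06). Its family member Bach1, also chosen after its values were seen, rose by 0.38 ± 0.11 against WT (adjusted p = 0.0185).

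Lymphocyte markers were examined beside Bach2. The summed level of 10 B cell markers was 117, 2.23 and 3.13 CPM in db/db, 3.15, 61.0 and 3.43 CPM in db/+ islets and 36.0, 26.0 and 5.89 CPM in WT. In db/db 2, where Bach2 was at 8.67 CPM, 6 of the 10 B cell markers had 0 counts, among them Ms4a1 and Pax5, and the other 4 ran from 0.124 (Cd79a) to 1.11 CPM (Ighm). In db/+ 2, with the second highest B cell sum, Bach2 was at 2.78 CPM. Of 9 tested B cell markers, 0 rose and 0 fell in db/db against WT. The 10 T cell markers summed to 2.80 to 9.19 CPM in db/db, 0.816 to 3.29 CPM in db/+ islets and 2.44 to 11.4 CPM in WT. Without db/db 1, the library with the most B cell counts, Bach2 was higher than in WT by 2.13 (adjusted p = 7.69e-06). The part of lymphocytes in the difference of Bach2 was not tested.

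**Figure D3:**
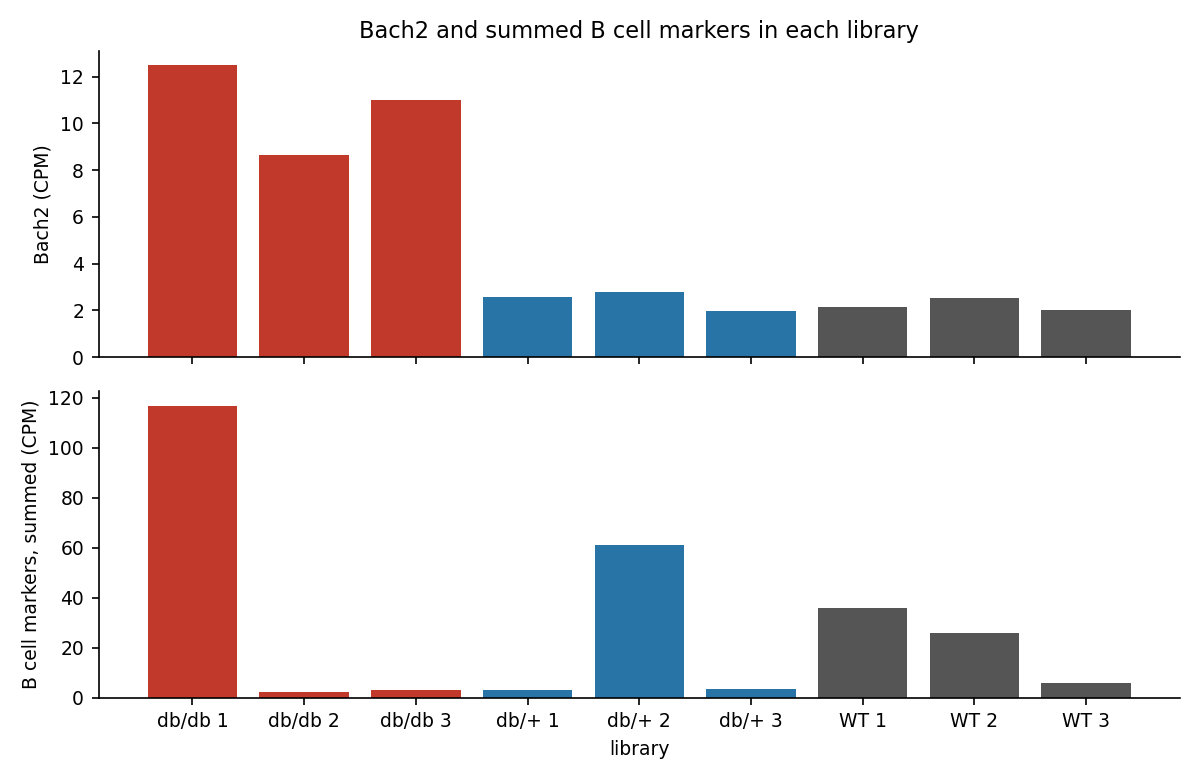
Bach2 (upper bars, CPM) and the summed CPM of 10 B cell markers (lower bars) in each of the 9 libraries, coloured by group. Bach2 was 8.67 to 12.5 CPM in all 3 db/db libraries, while the B cell sum was 117 CPM in db/db 1 and 2.23 and 3.13 CPM in the other two db/db libraries.

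The comparison of db/+ with WT islets asks whether 1 copy of the db allele is enough to change these genes. Of the 10 factor genes, 0 passed edgeR's test, where 1.43% of all tested genes did. None had an unadjusted p under 0.05, and DESeq2 and limma-voom called 0 as well. The groups overlapped in all 10 genes, while they did not overlap in 22.5% of all tested genes. The fold changes ran from -0.18 (Nkx2-2) to 0.13 (Bach2), with a median of -0.07. The confidence intervals bound what could have been missed. They were narrowest for Rfx6 (-0.26 to 0.08), Pax6 (-0.22 to 0.12) and Pdx1 (-0.33 to 0.02) and widest for Mafa (-0.71 to 0.63), for which a moderate difference was not detectable. Pdx1 had the smallest adjusted p (0.381).

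The order of levels within the set depended on the length used. Per kilobase of the longest coding transcript, Rfx6 had the highest level in db/db, at 67.1 CPM per kilobase, and stood below 6 other factor genes in WT, at 40.0. Per kilobase of coding sequence, Rfx6 ranked 6 in db/db, at 83.4 CPM per kilobase, and 8 in WT, at 49.8, and Pax6 led in db/db, at 212, as in WT. Mafa was at 13.1 CPM per kilobase in db/db, 118 in db/+ and 121 in WT. The annotation used for lengths, which is of another assembly, lists only the coding part of Mafa, so its value is too high beside the others. On the coding scale Pax6 and Nkx6-1 led in WT, at 309 and 307 CPM per kilobase, and did not differ beyond their spread between libraries. Bach2 was the lowest factor gene in every group on both scales, with 1.21 CPM per kilobase of transcript in db/db, 0.275 in db/+ and 0.252 in WT. The 10 genes together summed to 941 to 1092 CPM in db/db, 1531 to 1660 CPM in db/+ islets and 1576 to 1782 CPM in WT.

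Genes with the most similar profile were found by the root mean square difference of log2 CPM over the 9 libraries, after centring each gene on its mean. Outside the set, only genes with a mean of at least 10 CPM were searched. Predicted genes, small RNAs and pseudogenes were left out by the form of their symbol, a rule that also dropped all symbols opening with Rn. All 9 libraries are 3 groups, so a small difference mostly reflects the same group pattern. Nearest to Mafa were Tmem215 (0.322) and Ppp1r1a (0.329), and its nearest factor gene was Nkx6-1 (0.850). The measure includes the size of a change, and Mafa fell more than Nkx6-1 (-3.19 and -1.48 against WT). The distance of 0.850 therefore does not show that the order of libraries differed between these genes. Pdx1 and Neurod1 were each other's nearest factor gene (0.144). The closest of the searched genes outside the set were Sort1 (0.0714) and Camk2n1 (0.0740) for Pdx1, and Fpgt (0.0683) and Atp2a2 (0.0708) for Neurod1. Nkx6-1 was closest to Fhdc1 (0.107) and Itpkb (0.115), Mnx1 to Synpr (0.0831) and Mus81 (0.153), and Nkx2-2 to Larp1b (0.0722) and Ambra1 (0.0727). Isl1 was closest to Gt(ROSA)26Sor (0.0809) and Zfp788 (0.0840), and Pax6 to Usp9x (0.0332) and Usp37 (0.0387). Rfx6 was closest to Aplp1 (0.0721) and Ralgapa2 (0.0766), and Bach2 to Chgb (0.159), a granin gene, and Rhou (0.163).

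A list of 18 genes reported as targets of these factors fell more often than it rose in db/db. Against WT 13 fell, 1 rose and 4 did not pass, with a median log2 fold change of -0.78, beside 19.9% of all tested genes lower and 21.8% higher. Against db/+ 8 fell, 1 rose and 9 did not pass, with a median of -0.50, beside 19.7% of all tested genes lower and 20.6% higher. Ucn3, a peptide of mature beta cells, averaged 84.3 ± 8.39 CPM in db/db, 297 ± 13.7 CPM in db/+ islets and 285 ± 28.9 CPM in WT (SD, n = 3 each). Ero1lb, an oxidase that helps proinsulin fold, averaged 847 ± 104 CPM in db/db islets and 2375 ± 321 CPM in WT. Nnat, a proteolipid gene of beta cells, fell, at -3.71 ± 0.22 against WT (adjusted p = 6.30e-07). Iapp, the islet amyloid gene, was the one that rose, by 1.25 ± 0.12 (adjusted p = 3.78e-06). Ins1 and Ins2 themselves did not pass against WT, at -0.47 ± 0.29 (adjusted p = 0.235) and 0.04 ± 0.14 (adjusted p = 0.860). Ins1 stood at 14437, 32683 and 29325 CPM in db/db, 39476, 33791 and 36541 CPM in db/+ islets and 26257, 39567 and 40256 CPM in WT, so db/db 1 was the lowest of all.

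Among 31 cofactors that act with such factors, 12 fell, 5 rose and 14 did not pass in db/db against WT, with a median of -0.19, beside 19.9% of all tested genes lower and 21.8% higher. Tle3, a corepressor of the Groucho family, averaged 52.9 ± 6.37 CPM in db/db, 110 ± 11.1 CPM in db/+ islets and 134 ± 13.9 CPM in WT (SD, n = 3 each) and fell, at -1.34 ± 0.11 against WT (adjusted p = 7.73e-07). Meis2, a homeodomain partner (-0.63), and Mafg, a small MAF protein that pairs with BACH and other factors (-0.58), also fell. Setd7, a lysine methyltransferase (0.49), and Ldb2, a LIM domain binding protein (1.31), rose. Mafk, another small MAF, was at 55.8 ± 7.02 CPM in db/db, 72.4 ± 7.09 CPM in db/+ islets and 39.5 ± 4.10 CPM in WT. It was thus higher in db/db than in WT (0.50, adjusted p = 0.00276), lower in db/db than in db/+ (-0.37, adjusted p = 0.0142) and higher in db/+ than in WT (0.87, adjusted p = 0.00285).

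Of 36 related islet factors, 29 were tested, and 7 fell, 6 rose and 16 did not pass in db/db against WT, with a median of -0.18. These shares are close to those of all tested genes (19.9% lower and 21.8% higher) and say nothing particular about the list. Foxa2, a forkhead factor that acts upstream of Pdx1, fell, at -0.84 ± 0.09 (adjusted p = 8.91e-06), and so did Mlxipl, a glucose-responsive factor, at -1.16 ± 0.14 (adjusted p = 7.99e-05). Glis3, a regulator of the insulin gene, was lower in db/db than in WT (-0.48, adjusted p = 1.89e-04) and also lower in db/+ than in WT (-0.43, adjusted p = 0.0227). Hnf4a, a nuclear receptor, rose by 0.68 ± 0.12 (adjusted p = 4.87e-04). Hes1, a Notch effector (1.04), and Rest, a repressor of neuronal and endocrine genes (1.02), rose as well. Both are also expressed by non-endocrine cells whose markers rose. The part of such cells in the changes of the genes on this list was not tested. Rest averaged 13.0 ± 6.30 CPM in db/db against 6.33 ± 1.19 CPM in WT. Pax4 and Neurod2 had 0 counts in every library, which allows a level of up to 0.412 CPM in the shallowest library.

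In db/+ against WT few genes of these lists passed, where 1.43% of all tested genes did. Of the related islet factors 0 rose and 2 fell, Foxo1 (-0.59, adjusted p = 0.0458) and Glis3. Of the cofactors 1 rose, Mafk, and 1 fell, Ncoa6 (-0.69, adjusted p = 0.0480). Of the target genes 0 rose and 1 fell, Cacna1d, a calcium channel subunit (-0.52, adjusted p = 0.0444). In db/db against db/+ the related islet factors had 7 of 29 that rose and 6 that fell, with a median of 0.04. The cofactors had 3 of 31 that rose and 11 that fell, with a median of -0.04. Of all tested genes, 20.6% were higher and 19.7% lower, and the shares of the related islet factors are close to these.

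**Figure D4:**
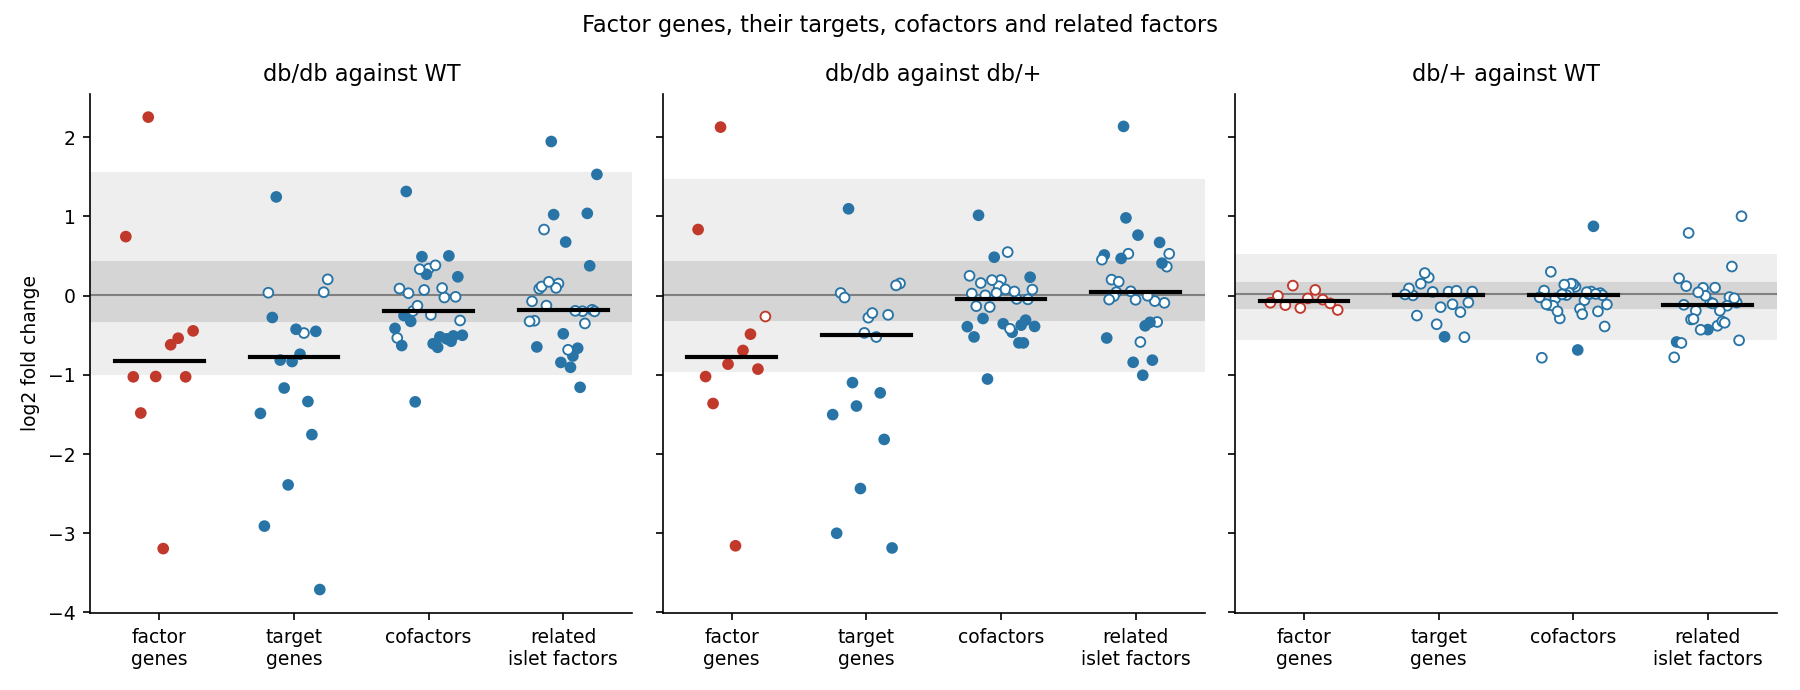
Log2 fold changes of the 10 factor genes, 18 target genes, 31 cofactors and 29 tested related islet factors in each comparison, with filled points past the threshold and a black line at each list's median. The grey bands hold the middle 50% and 90% of single tested genes and are no range for a median. The medians of the factor genes were -0.82 for db/db against WT, -0.78 for db/db against db/+ and -0.07 for db/+ against WT.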

How the data were processed

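The authors sequenced total RNA after removal of ribosomal RNA (Ribo-Zero Gold), per the labels' protocols. The submitters' processing notes name bcl2fastq 2.20.0.422, TopHat2 2.0.14 and the mm10 build. The deposited values are raw read counts per gene symbol, in 1 table. How reads were counted, with which annotation and strand setting, is not given in the sources used here. The table has 1 column that matches no sample, which was not used.

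Genes were kept by filterByExpr, normalised by TMM and fitted with edgeR 4.0.16 (R 4.3.3) to the 9 libraries together, with robust dispersions and 6 residual degrees of freedom. Each contrast was tested two-sided by quasi-likelihood, and p values were adjusted by Benjamini-Hochberg across the tested genes. The procedure was run on simulated counts in which far fewer genes were changed than were called in db/db. This run is therefore no check of the share of false calls in these data. Groups came from the genotype labels, and replicate numbers only name libraries. Alternatives were other scalings and filters, DESeq2 1.42.0, limma-voom (limma 3.58.1), covariates, and libraries left out. Leaving out 3 libraries together was chosen after seeing the data.

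The factor genes and lists were chosen with earlier results of these data known. All 10 factor genes are described, with Ins1 and Ins2. From each list up to 3 risen and 3 fallen genes with the smallest adjusted p against WT are named, and for each factor gene the 2 genes of at least 10 CPM with the nearest profile. Positions are RefSeq's for GRCm38.p6. Figures were drawn with matplotlib 3.10.9. Some genes are not reported here.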

Additional observations from a re-analysis of the deposited data

How the results depend on the processing

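No paired analysis was possible because the labels give no replicate numbers. In the comparisons of db/db, 223 of 230 values of the factor genes against WT and 223 of 230 against db/+ kept their direction and side of the threshold, and none changed direction. With 1 library left out, 8 factor genes were lower and 2 higher against WT every time, and 7 to 8 lower and 2 higher against db/+. Tested against a 1.5-fold change, 5 were lower and 1 higher than in WT and 4 lower than in db/+, since this asks for larger changes. With the acinar covariate 5 were lower than in WT.

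Over all genes, the counts of calls against WT and against db/+ were 1809 and 1663 when tested against a 1.5-fold change, and 4425 and 2033 with the title letter as a covariate. They were 3144 against WT with the acinar covariate, 4402 against db/+ with the Y-linked covariate and 4449 against WT without the 3 libraries. With 1 library left out they were 5774 to 7004 against WT and 5441 to 6880 against db/+. For db/+ against WT the main count of 240 became 768 with no filter, 633 with DESeq2, 0 against a 1.5-fold change, 45 with the title letter, 97 with the acinar covariate, 407 with the Y-linked covariate and 97 without the 3 libraries. It was 23 to 430 with 1 library left out. The cause was not tested, and 0 factor genes were called in this comparison under any alternative.

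In db/+ against WT, 20 of 230 fold changes crossed 0, none past the threshold. With 1 library left out Mafa ran from -0.24 to 0.16, Nkx6-1 from -0.20 to 0.0142, Isl1 from -0.037 to 0.14, Neurod1 from -0.0283 to 0.0349 and Mnx1 from -0.22 to 0.11. With the acinar covariate Mafa was at 0.23, Neurod1 at 0.18, Nkx6-1 at 0.0609 and Pax6 at 0.0503. Mafa was at 0.024 with the title letter and 0.0214 with the Y-linked covariate. Neurod1 was at 0.0231 with the Y-linked covariate, 0.0022 with library totals and 0.0024 with acinar markers, Gm42418 and Lars2 removed. Without the 3 libraries Rfx6 was at 0.0159 and Bach2 at -0.049.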
